A study of Homo sapiens with 14 samples.

Results

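The proteasome genes were defined by symbol, as every gene named PSMA, PSMB, PSMC, PSMD, PSME, PSMF or PSMG followed by a number, with pseudogenes left out. Of 19775 genes represented on the arrays, 50 fitted the rule, of which 44 were protein-coding and 6 were noncoding RNA genes named after a neighboring member. Another 6 protein-coding genes of the rule were not analysed here: PSMA6 and PSME2 were named only on probe sets shared with another gene, and no probe set used here named PSMB11, PSMC5, PSMD7 or PSMD13 alone.

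Expression was measured in 7 established T-cell acute lymphoblastic leukemia (T-ALL) lines, which were ALL-SIL, CCRF-CEM, HPB-ALL, Jurkat, TALL-1, Molt-4 and P12-ICHIKAWA. Cells of each line were exposed for 6 h to vehicle or to AS605240, an inhibitor of phosphatidylinositol 3-kinase (PI3K). It was used at the IC50 concentration of that line, which came from a longer assay of cell survival and not of PI3K activity. The comparison asked which transcripts change with this treatment. The paper presumes that cytotoxic concentrations disrupt several PI3K isoforms. Whether a change came from PI3K inhibition or from another effect of the treatment was not tested. Each line gave 1 array per treatment, 14 arrays in all, so the line is the replicate and no line has a replicate of its own. The lines are cultured leukemia clones rather than primary cells, and the concentration of AS605240 differed between them.

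The proteasome degrades proteins tagged with ubiquitin. Its barrel-shaped core is built of alpha and beta subunits, and some of the beta subunits carry the proteolytic sites. A regulatory particle caps the barrel: its base holds the ATPases that unfold the substrate, and its lid holds the enzyme that removes the ubiquitin chain. Lymphoid cells also make immunosubunits, which replace the catalytic beta subunits and alter the peptides available for presentation on MHC class I. Other activators can open the core, and dedicated chaperones guide its assembly.

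Values are log2(signal + 16), where the signal is the deposited linear intensity of the brightest probe set that names the gene alone. Probe sets differ in brightness, so levels are compared between arrays and never between genes. The arrays were alike in brightness, with 31.7% to 34.0% of probe sets above a signal of 50. Of 8 T cell markers, 7 were above a signal of 50 in every vehicle array, the exception being CD2. None of 4 B cell markers, 1 of 5 myeloid markers (LYZ) and 1 of 2 erythroid markers (HBB) were. MS4A1, PAX5, CD14, CSF1R, ITGAM, MPO and ALAS2 were above it in none of these arrays. CD79A and CD79B were above it in some of them, with vehicle medians of 7.55 and 6.19. Among the T cell and B cell markers, CD3G (-0.26) and CD79B (-0.58, dim) were called lower with AS605240, and their part in the results was not tested. P12-ICHIKAWA and TALL-1 had nearly the same proteasome levels: over the 42 members assigned to a proteasome class, no vehicle level differed by more than 0.31 and the median difference was 0.12. The other pairs of lines had largest differences of 0.68 to 1.53. The relation of these lines to each other was not tested, and the counts of members called with AS605240 are therefore also given with the pair averaged as 1 line.

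AS605240 lowered 13 of the 44 protein-coding members (29.5%) and raised 1, PSMC3IP, at an adjusted p under 0.05 (limma with cell line as a block, adjusted by Benjamini-Hochberg over all genes). Of all genes, 7.03% were called lower and 11.8% higher by the same rule. Since 43 of the 44 members were above a signal of 50 in at least 7 arrays, the shares were also taken among the 9186 genes of that brightness, of which 13.6% were lower and 20.3% higher. The median change was -0.15 over the members and 0.01 over all genes. A mean change below 0 was seen in 34 of 44 members, in 9004 of all 19775 genes and in 4035 of the 9186 brighter ones. With P12-ICHIKAWA and TALL-1 averaged, 9 members remained lower and 1 higher, as were 5.83% and 10.3% of all genes.

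Direction and size of the change both differed between lines. Among the 44 members, 14 were lower with AS605240 in 7 of 7 lines, as were 6.11% of all genes. These 7 count P12-ICHIKAWA and TALL-1 as separate lines, and 10589 of the 19775 genes were dim. Of the 13 members called lower, 12 were lower in every line, and the exception was PSMF1, which was 0.10 higher in HPB-ALL. The fit with cell line as a block favors members whose lines agree, so this count follows in part from the calling. Only PSMC3IP and PSMG2 were higher in 7 of 7 lines, a pattern met by 10.0% of all genes. The falls were small. A fall of more than 1.5-fold together with an adjusted p under 0.05 was reached by 2 members, PSMG4 and PSME3, and by 0.506% of all genes, whereas no protein-coding member rose by as much, as 1.07% of all genes did. In bulk RNA, fewer cells with a transcript and less transcript per cell cannot be told apart.

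**Figure D1:**
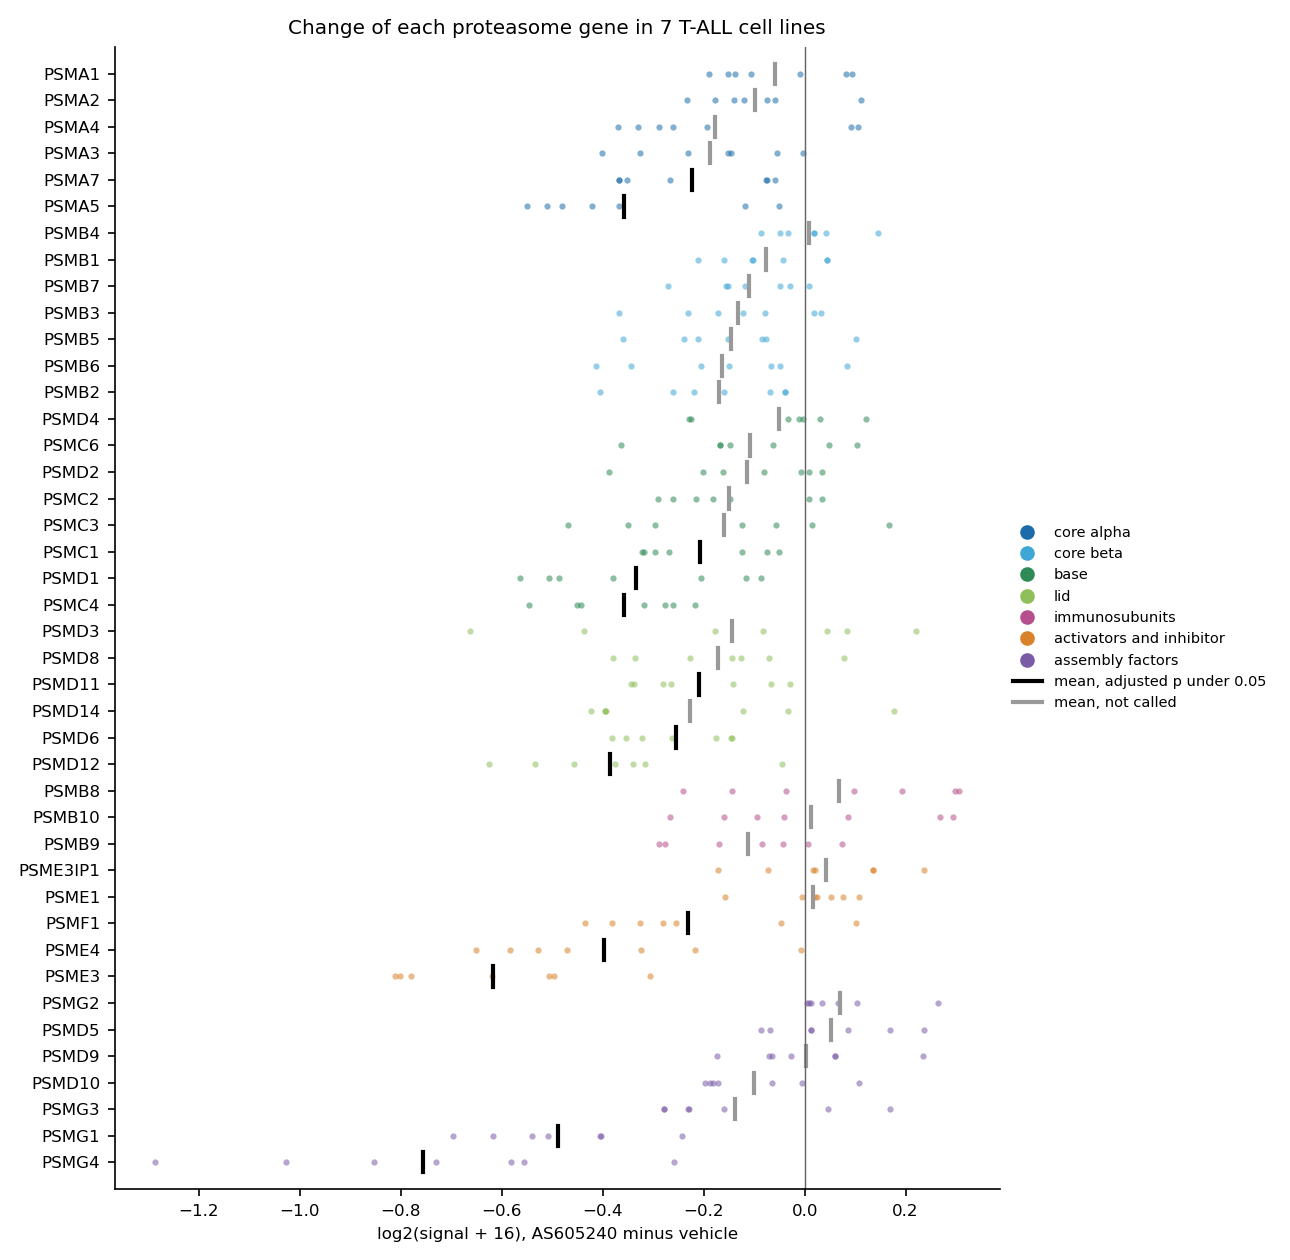
Change of 42 proteasome genes with AS605240, in log2(signal + 16), AS605240 minus vehicle (horizontal axis). Points stand for the 7 lines, 1 each, and each bar for their mean, black where the adjusted p was under 0.05. The points of PSME3, PSMG1 and PSMG4 all lie left of 0, whereas those of the immunosubunits lie on both sides of 0.

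The 26S proteasome, counted here as the core, base and lid, was represented by 27 subunits, of which 8 fell and none rose. An unadjusted p under 0.05 in limma, in either direction, was reached by 16 of the 27. It was also reached by 5910 of all 19775 genes and by 4494 of the 9186 brighter ones. The mean change was below 0 for 26 of the 27, and for 4035 of those 9186 genes. The values of the subunits ran from -0.38 for PSMD12 to 0.01 for PSMB4, which turned below 0 when each array was centered on its median. The median over these subunits was -0.16. It was below 0 in every line, most so in P12-ICHIKAWA (-0.34), ALL-SIL (-0.27) and TALL-1 (-0.24), and closest to 0 in Jurkat (-0.05) and HPB-ALL (-0.05). The median of all genes lay between 0.0006 and 0.0398 in each line. In ALL-SIL all 27 subunits were lower with AS605240, in Jurkat 17 and in HPB-ALL 18. Of all 19775 genes, 9355 were lower in ALL-SIL, 9833 in Jurkat and 8477 in HPB-ALL. Within a line the subunits share the same arrays, so that their agreement is not independent.

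Within the alpha ring, which gates entry to the core, 2 of 6 subunits fell and the class median was -0.18. PSMA5 ranged from 10.23 to 10.93 with vehicle, with a median of 10.43, and from 9.74 to 10.81 with AS605240, with a median of 10.01. The treated and vehicle ranges overlapped, and Jurkat was the highest line under both conditions. PSMA5 fell by 0.36 (SE 0.07, n = 7 lines, adjusted p = 0.00302 by limma), and the fall was deepest in ALL-SIL (-0.55) and slightest in HPB-ALL (-0.05). This value comes from the brighter of its probe sets. The other, much dimmer, changed by 0.11 without a call, and with both averaged the change was -0.12 and no longer past the threshold (limma adjusted p = 0.204). PSMA7 ranged from 11.06 to 11.83 with vehicle (median 11.40) and from 10.69 to 11.49 with AS605240 (median 11.13). It fell by 0.22 (SE 0.06, n = 7 lines, limma adjusted p = 0.0235). That call was lost in 7 of 16 alternatives, among them an offset of 4 and P12-ICHIKAWA and TALL-1 averaged. PSMA3, at -0.19, narrowly missed the threshold with an adjusted p of 0.0519. The values of PSMA4, PSMA2 and PSMA1 were -0.18, -0.10 and -0.06, and none passed.

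None of the 7 beta subunits of the constitutive core passed the threshold on its brightest probe set, and the class median was -0.13. An unadjusted p under 0.05 in limma, in either direction, was reached by 3 of the 7, and by 4494 of the 9186 brighter genes. PSMB2 had the smallest p of the class. It ranged from 11.04 to 11.77 with vehicle (median 11.14) and from 10.64 to 11.73 with AS605240 (median 11.02), and its mean change was -0.17 (SE 0.06, n = 7 lines, limma adjusted p = 0.0726). A dimmer PSMB2 probe set fell by 0.42 (adjusted p = 0.00105 in a limma fit of all probe sets). PSMB2 gained a call in 3 of 16 alternatives, including the average of its probe sets (-0.17, limma adjusted p = 0.022). The catalytic subunits are PSMB6, PSMB7 and PSMB5, with caspase-like, trypsin-like and chymotrypsin-like activity, and PSMB5 is the main target of bortezomib. Their changes were -0.16 (95% confidence interval -0.31 to -0.02, limma adjusted p = 0.116), -0.11 (-0.23 to 0.01, adjusted p = 0.221) and -0.15 (-0.28 to -0.01, adjusted p = 0.134). A fall of about the size seen for PSMA7 therefore lies within each of the 3 intervals. PSMB3 was at -0.13, PSMB1 at -0.08 and PSMB4 at 0.01.

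Of the 8 measured base subunits, 3 fell: PSMC4, PSMD1 and PSMC1. PSMC4, an ATPase of the base ring, ranged from 9.62 to 10.44 with vehicle (median 9.77) and from 9.07 to 10.12 with AS605240 (median 9.48). The fall was 0.36 (SE 0.06, n = 7 lines, limma adjusted p = 0.000906), from 0.22 in HPB-ALL to 0.55 in ALL-SIL in size. PSMD1, a large scaffold subunit, ranged from 9.62 to 10.50 with vehicle (median 9.81) and from 9.06 to 10.41 with AS605240 (median 9.50). P12-ICHIKAWA was its lowest line and Jurkat its highest under both conditions. PSMD1 fell by 0.33 (SE 0.07, n = 7 lines, limma adjusted p = 0.00457). The ATPase PSMC1 fell by 0.21 (limma adjusted p = 0.0251), a call lost in 7 of 16 alternatives. The other ATPases measured, PSMC3, PSMC2 and PSMC6, were at -0.16, -0.15 and -0.11, the scaffold PSMD2 was at -0.11 and the ubiquitin receptor PSMD4 at -0.05, none of them past the threshold.

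The lid had 3 of 6 measured subunits lower, PSMD12, PSMD6 and PSMD11, and a class median of -0.22. PSMD12, a structural subunit, ranged from 9.19 to 10.06 with vehicle (median 9.62) and from 8.56 to 9.74 with AS605240 (median 9.25). It had the deepest fall of all 26S subunits, 0.38 (SE 0.07, n = 7 lines, limma adjusted p = 0.00156), with P12-ICHIKAWA at -0.62 and HPB-ALL at -0.05. A second, dimmer PSMD12 probe set changed by -0.14 and was not called. PSMD6 ranged from 9.55 to 11.07 with vehicle (median 10.64) and from 9.38 to 10.92 with AS605240 (median 10.37), and it fell by 0.26 (SE 0.06, n = 7 lines, limma adjusted p = 0.00628). Here the change was even, from -0.38 in ALL-SIL to -0.14 in CCRF-CEM, while the level in HPB-ALL stood well below that of the other lines. Averaged with a dim second probe set, PSMD6 was at -0.13 and no longer called. PSMD11 fell by 0.21 (limma adjusted p = 0.0267), a call lost in 8 of 16 alternatives. PSMD14, the deubiquitinase of the lid, was at -0.23 with an adjusted p of 0.0607. It was lower in 6 lines and 0.18 higher in Jurkat. PSMD8 and PSMD3 were at -0.17 and -0.14.

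The 3 immunosubunits had no call in either direction, and none had an unadjusted p under 0.05 in limma. PSMB8 takes the place of PSMB5, PSMB9 that of PSMB6 and PSMB10 that of PSMB7. PSMB8 ranged from 9.94 to 10.67 with vehicle (median 10.12) and from 10.02 to 10.43 with AS605240 (median 10.19). Its change was 0.07 (SE 0.07, 95% confidence interval -0.09 to 0.23, n = 7 lines, limma adjusted p = 0.625). PSMB9 ranged from 9.50 to 10.40 and from 9.41 to 10.20 (medians 10.02 and 9.85), and its change was -0.11 (SE 0.06, 95% confidence interval -0.25 to 0.02, n = 7 lines, limma adjusted p = 0.259). PSMB10 ranged from 8.57 to 9.97 and from 8.65 to 10.24 (medians 8.89 and 9.18), and its change was 0.01 (SE 0.07, 95% confidence interval -0.15 to 0.17, n = 7 lines, limma adjusted p = 0.944). The measured changes, from 1 array per line and treatment, differed in direction between lines. PSMB8 was 0.31 higher in TALL-1 and 0.24 lower in ALL-SIL, and PSMB10 was 0.29 higher in TALL-1 and 0.27 lower in ALL-SIL. Whether the response of the immunosubunits differs from that of the subunits they replace was not tested.

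**Figure D2:**
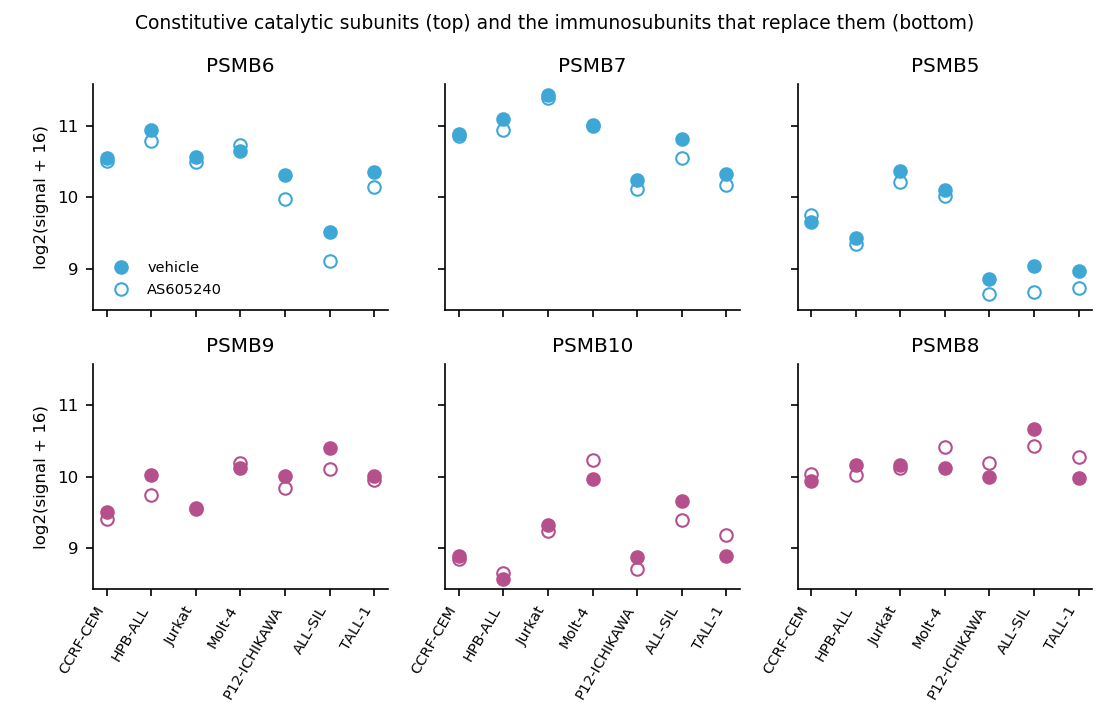
Levels of the 3 constitutive catalytic subunits (top row) and of the immunosubunit that replaces each (bottom row), in log2(signal + 16), for 7 cell lines on the horizontal axis. Filled circles are vehicle and open circles AS605240, 1 array each. ALL-SIL is lowest for PSMB6 and highest, with vehicle, for PSMB8 and PSMB9.

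Among the 5 genes of activators and inhibitors, PSME3, PSME4 and PSMF1 fell, while PSME1 (0.02) and PSME3IP1 (0.04) did not pass the threshold. PSME3 encodes the nuclear activator PA28 gamma, which opens the core without ubiquitin. With vehicle it ranged from 9.33 in HPB-ALL to 10.64 in Molt-4, with a median of 9.59. With AS605240 it ranged from 8.63 in ALL-SIL to 10.13 in Molt-4, with a median of 9.02. Every line was lower with AS605240, by 0.31 in HPB-ALL up to 0.81 in TALL-1 in size, although the ranges overlapped because Molt-4 stood high in both. The mean fall was 0.62 (SE 0.07, n = 7 lines), or 1.53-fold, with a limma adjusted p of 6.96e-05, the smallest among the protein-coding members. All 4 probe sets of PSME3 gave nearly the same value, from -0.62 to -0.59.

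PSME4, which encodes the activator PA200, ranged from 7.74 to 8.68 with vehicle (median 8.39) and from 7.51 to 8.36 with AS605240 (median 7.80). It fell by 0.40 (SE 0.08, n = 7 lines, 1.32-fold, limma adjusted p = 0.00247). The fall was 0.65 in P12-ICHIKAWA and 0.01 in HPB-ALL. Of its other probe sets, 1 also fell (-0.32) and 1 did not (-0.03). PSMF1, an inhibitor of the core, fell by 0.23 (limma adjusted p = 0.034) on its brightest probe set. Its second probe set, nearly as bright, changed by 0.16 in the other direction without passing the threshold, so that the direction of PSMF1 rests on the choice of probe set. Its call was lost in 9 of 16 alternatives. PSME1 is a subunit of the interferon-inducible activator PA28.

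The assembly factors split. PSMG1 and PSMG4 fell, and the other 5 did not pass the threshold. PSMG4 ranged from 8.70 in HPB-ALL to 9.44 in Jurkat with vehicle, with a median of 9.27, and from 8.06 in P12-ICHIKAWA to 9.01 in Molt-4 with AS605240, with a median of 8.41. Only the treated Molt-4 and vehicle HPB-ALL ends of these ranges brought them to overlap. This gene, which encodes a chaperone of the alpha ring that pairs with PSMG3, had the deepest fall of all members: 0.76 (SE 0.10, n = 7 lines), or 1.69-fold, with a limma adjusted p of 0.000184. The fall reached 1.29 in P12-ICHIKAWA and was 0.26 in Molt-4. The value comes from 1 bright probe set. The other 4 probe sets of PSMG4 were dim, with mean levels from 4.09 to 4.79 and changes from -0.17 to 0.21, and with the mean of all 5 the change was -0.12 and no longer past the threshold (limma adjusted p = 0.0811).

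PSMG1, which acts with PSMG2 as a chaperone early in alpha ring assembly, ranged from 10.22 in TALL-1 to 10.96 in CCRF-CEM with vehicle (median 10.46) and from 9.61 to 10.72, in the same lines, with AS605240 (median 10.05). It fell by 0.49 (SE 0.06, n = 7 lines, 1.40-fold, limma adjusted p = 0.000178), in every line and by at least 0.24. Its partner PSMG2 was at 0.07 (limma adjusted p = 0.465), above 0 in 7 of 7 lines, and PSMG3, the partner of PSMG4, was at -0.14 (limma adjusted p = 0.197). The partners in each pair thus had different calls, but the difference between them was not tested. The chaperones of the base, PSMD10, PSMD5 and PSMD9, were at -0.10, 0.05 and 0.0027.

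**Figure D3:**
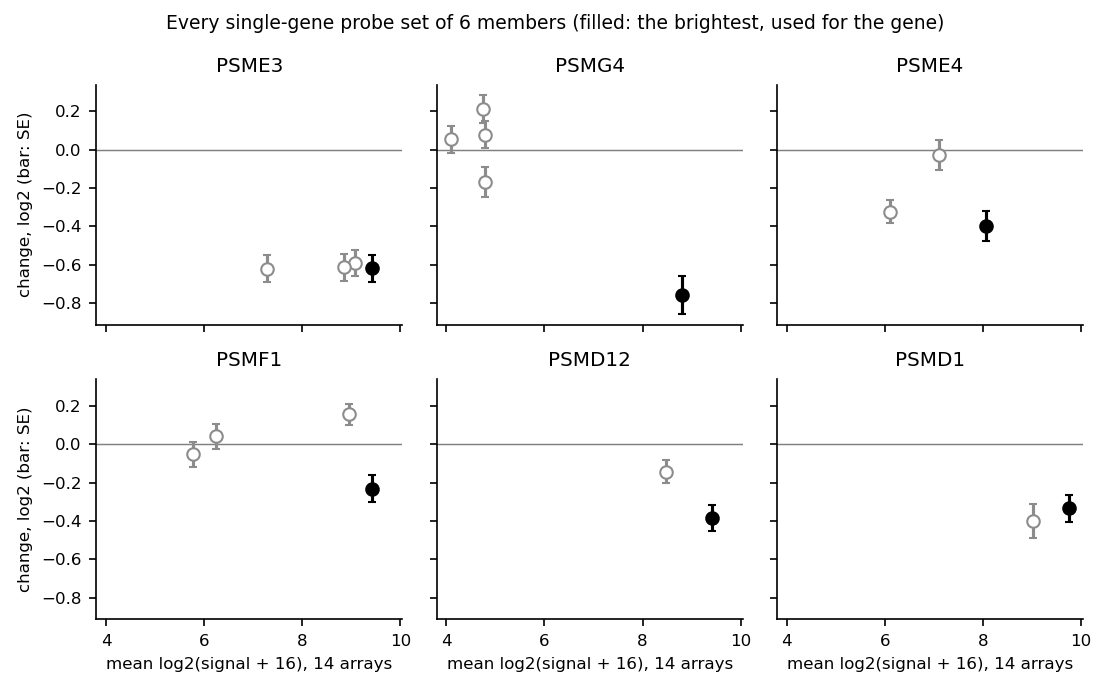
Change with AS605240 (vertical axis, log2(signal + 16), bars: SE) against mean level over 14 arrays (horizontal axis) for every probe set that names 1 of 6 members alone. Filled circles mark the brightest probe set, used for the gene. The 4 probe sets of PSME3 lie together between -0.62 and -0.59, whereas the second brightest of PSMF1 lies above 0.

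The 100 bases before the start given in a RefSeq promoter table are shown for the genes with the deepest falls, PSMG4 and PSME3, for PSME4 and for an immunosubunit that was not called, PSMB10 (GRCh38.p14, 5′ to 3′ on the strand of the gene). The windows lie at chr6:3258847-3258946 (plus strand), chr17:42833297-42833396 (plus), chr2:53970994-53971093 (minus) and chr16:67936851-67936950 (minus). For PSMG4 the start in that table, 3258947, lies 4543 bases inside the span of the gene record, which begins at 3254404, so its window precedes only the start chosen in the table. The other 3 windows end at the edge of the gene. Capitals mark a match to 1 of 4 motifs searched on both strands: the E-box CACGTG, bound by Myc and related factors, the CCAAT box CCAAT, the antioxidant response element core TGACNNNGC and the core of the interferon regulatory factor element, a repeat of GAAA.
PSMG4: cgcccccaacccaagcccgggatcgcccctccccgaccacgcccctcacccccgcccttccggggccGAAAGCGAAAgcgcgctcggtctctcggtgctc
PSME3: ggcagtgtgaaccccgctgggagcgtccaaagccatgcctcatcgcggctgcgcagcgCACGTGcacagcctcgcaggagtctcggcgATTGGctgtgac
PSME4: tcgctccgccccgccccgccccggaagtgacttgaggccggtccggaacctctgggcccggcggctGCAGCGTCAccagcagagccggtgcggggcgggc
PSMB10: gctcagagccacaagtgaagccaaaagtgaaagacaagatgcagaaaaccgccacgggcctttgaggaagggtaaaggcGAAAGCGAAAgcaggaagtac

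PSME3 held the E-box and, on the other strand, a CCAAT box. PSMG4 and PSMB10 held the same GAAAGCGAAA, although 1 fell and the other had no call. PSME4 held the antioxidant response element core on the other strand. That table held 37 of 43 proteasome members and placed the start of 5 of them inside the gene span. Over the 250 bases before the start, the antioxidant response element core was found in 10 (27.0%, against 11.0% of 27305 promoters), among them PSMG1, PSMD12, PSMB3 and PSMD3. It was found in 3 of 22 subunits of the 26S proteasome. Members called lower held it in 3 of 12 and the other members in 7 of 25. The E-box was found in 4 (10.8%, against 6.49%), which were PSMB3, PSMD9, PSME3 and PSME3IP1, and only PSME3 of these was called. The CCAAT box was found in 16 (43.2%, against 33.0%) and the interferon regulatory factor core in 4 (10.8%, against 3.07%). These matches are descriptions of the letters and no binding was measured.

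PSMA8, PSMC3IP and the noncoding genes stand apart from the proteasome of these cells. PSMA8, the alpha subunit of the testis, was dim in most lines, from 4.45 to 5.79 with vehicle, and reached 7.42 in CCRF-CEM and 7.44 in Jurkat, with a change of 0.21 that did not pass the threshold (limma adjusted p = 0.158). PSMC3IP, a recombination factor named for binding PSMC3 and not a proteasome subunit, rose in 7 of 7 lines, from 7.63 ± 0.40 to 8.06 ± 0.59 (SD, n = 7), by 0.43 (SE 0.09, limma adjusted p = 0.00445). Its rise was largest in Molt-4 (0.85) and Jurkat (0.81). Of the 6 noncoding genes, PSMG3-AS1 rose by 0.61 (SE 0.09, n = 7 lines, 1.52-fold, limma adjusted p = 0.000529) from a dim vehicle level of 5.39, and the other 5, PSMA3-AS1, PSMB8-AS1, PSMD14-DT, PSMD6-AS2 and PSMD7-DT, were between -0.01 and 0.26 without a call.

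The lines themselves differed in level. The moderated F-test across lines, in the same limma fit, called 41 of the 44 members, against 66.9% of all genes and 93.0% of the genes above a signal of 50 in at least 7 arrays, so that the share of members was near that of genes of their brightness. Exceptions were PSMA2, PSMD8 and PSMG2. The spread between the highest and the lowest line with vehicle had a median of 1.83-fold over the members. Among 26S subunits it ran from 1.22-fold for PSMD8 to 2.86-fold for PSMB5 and PSMD6. With vehicle, Jurkat was the highest line for 16 of the 27 subunits and Molt-4 for 6, while P12-ICHIKAWA was lowest for 10 and ALL-SIL for 8. The order was much the same with AS605240, where Jurkat was highest for 18 and P12-ICHIKAWA lowest for 15. The highest line was the same in both treatments for 21 of 27 subunits and the lowest for 20. These subunits share the same arrays, so that their agreement is not independent.

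**Figure D4:**
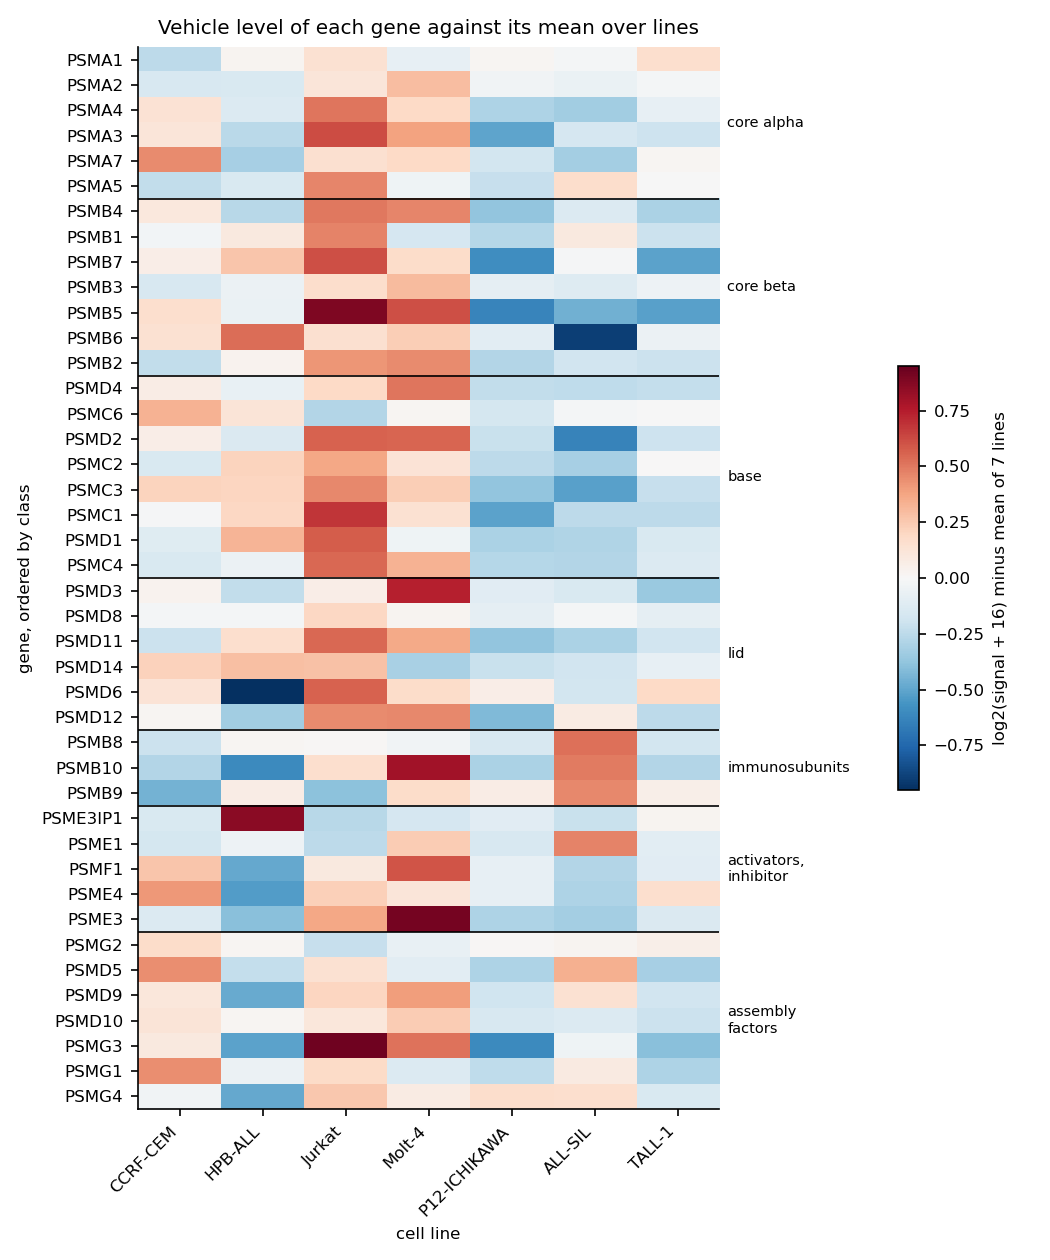
Vehicle level of each of 42 proteasome genes minus its mean over the 7 lines (color, log2(signal + 16)), with genes by class on the vertical axis and cell lines on the horizontal axis. Jurkat and Molt-4 are mostly above the mean for the core, base and lid, P12-ICHIKAWA is mostly below, and ALL-SIL is above the mean for all 3 immunosubunits.

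The catalytic subunits differed in which line stood highest. PSMB5 was highest in Jurkat (10.37) and Molt-4 (10.10) and lowest in TALL-1 (8.97) and P12-ICHIKAWA (8.85), with ALL-SIL at 9.03 (limma F-test adjusted p = 8.26e-08). PSMB6 was 9.51 in ALL-SIL against 10.31 to 10.94 in the other lines, with HPB-ALL highest (adjusted p = 1.4e-06). PSMB7 ran from 10.24 in P12-ICHIKAWA to 11.44 in Jurkat (adjusted p = 1.06e-06). None of the immunosubunits was highest in Jurkat. PSMB8 and PSMB9 were highest with vehicle in ALL-SIL, at 10.67 and 10.40 (adjusted p = 0.0431 and 0.000181), and PSMB10 was highest in Molt-4 (9.97) and next in ALL-SIL (9.66, adjusted p = 3.91e-06). With vehicle, ALL-SIL thus had the lowest PSMB6 level and the highest level of PSMB9, which replaces it. With AS605240 it was still lowest for PSMB6, but PSMB9 was highest in Molt-4. The other pairs had no such line: PSMB5 and PSMB7 were lowest in P12-ICHIKAWA, while PSMB8 was highest in ALL-SIL and PSMB10 in Molt-4.

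**Figure D5:**
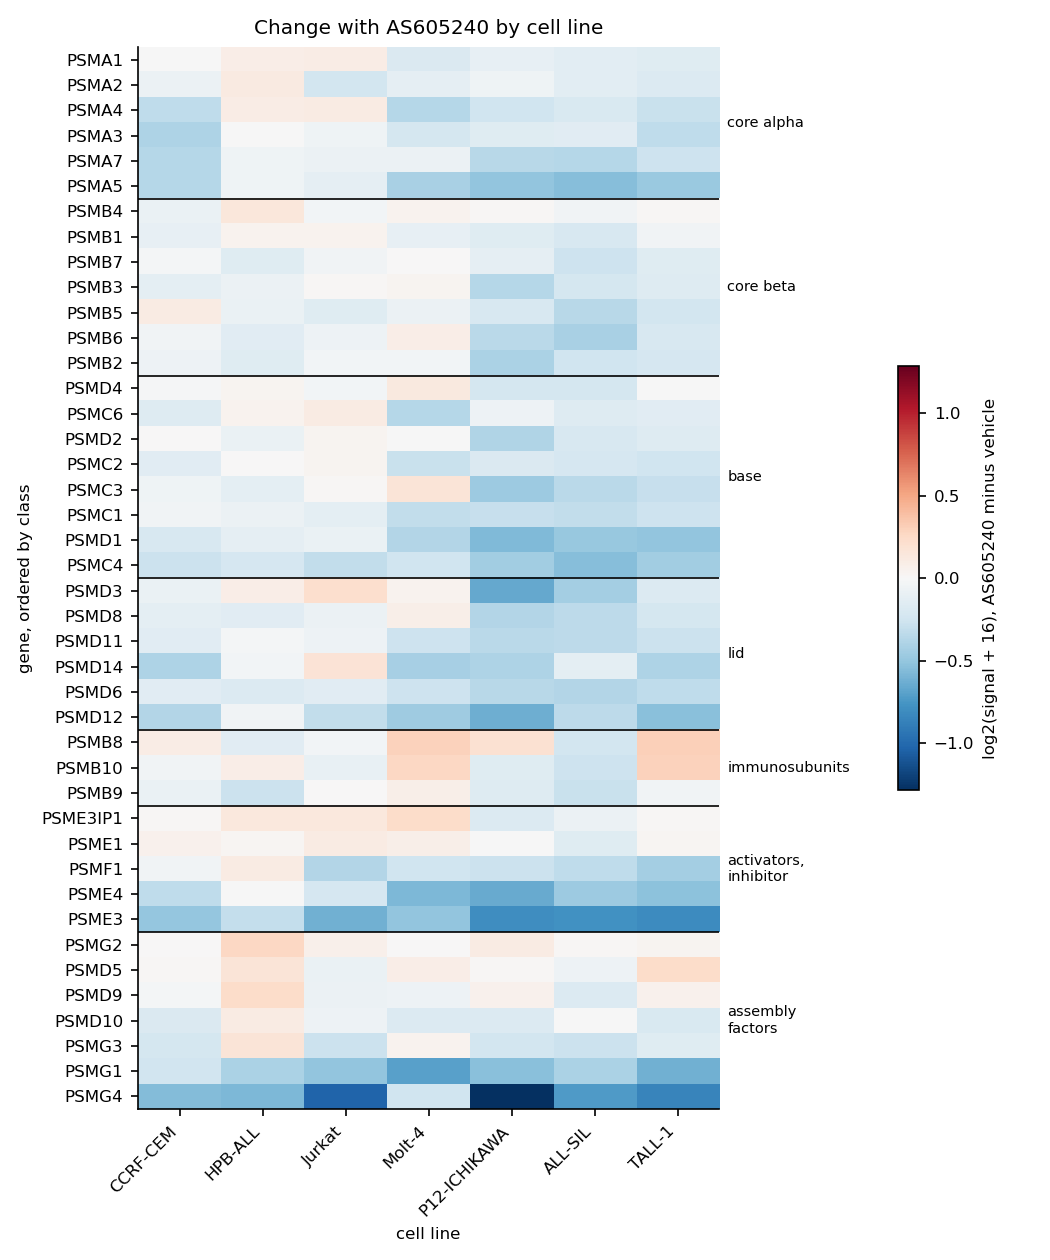
Change with AS605240 (color, log2(signal + 16), AS605240 minus vehicle) for 42 proteasome genes by class on the vertical axis and 7 cell lines on the horizontal axis. PSME3, PSMG1 and PSMG4 are blue (lower) in every line, and most 26S subunits are deeper blue in P12-ICHIKAWA, ALL-SIL and TALL-1 than in HPB-ALL and Jurkat.

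Genes that work with the proteasome were taken from lists and read against the 13.6% lower and 20.3% higher among genes of like brightness. Of 24 measured partners and regulators, 6 fell (25.0%) and 4 rose (16.7%), with a median of -0.06, so that the share that rose was no larger than among those genes. UCHL5, a deubiquitinase bound to the regulatory particle, fell by 0.64 (SE 0.07, n = 7 lines, limma adjusted p = 7.71e-05). ADRM1, the ubiquitin receptor that anchors UCHL5, fell by 0.25 (adjusted p = 0.0183), the deubiquitinase USP14 by 0.18 (adjusted p = 0.0301) and POMP, the maturation factor of the core, by 0.23 (adjusted p = 0.0445). NGLY1 and RAD23B were the other genes that fell. ZFAND2A, a stress-inducible proteasome-associated protein, rose by 0.79 (SE 0.08, n = 7 lines, limma adjusted p = 3.35e-05), and IPO9, an importin that carries proteasomes into the nucleus, by 0.32 (adjusted p = 0.00161). PITHD1 and NFE2L1 also rose. NFE2L1 encodes the transcription factor NRF1, which drives proteasome genes when degradation is impaired, and its transcript rose by 0.19 (adjusted p = 0.0311).

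Of 6 measured ubiquitin genes and conjugating enzymes, the conjugating enzymes UBE2N and UBE2K fell, by 0.32 and 0.28 (limma adjusted p = 0.00273 and 0.011), and the activating enzyme UBA6 was at -0.16 without a call. MHC class I antigen processing, which uses peptides made by the proteasome, had 5 of 15 genes lower (33.3%) and 3 higher (20.0%), with a median of 0.09, and the share higher was again that of genes of like brightness. HLA-E rose by 0.62 (limma adjusted p = 7.56e-05), and the folding factors PDIA3 and CALR fell by 0.46 and 0.33 (adjusted p = 0.000876 and 0.0011). The CCT chaperonin, a protein-folding machine taken as another large complex, had all 7 measured subunits lower, with a median of -0.30, and CCT5, CCT6A and CCT2 fell by 0.46, 0.38 and 0.30 (limma adjusted p = 0.000285, 0.00219 and 0.00287). Of the 27 subunits of the 26S proteasome, 8 fell, with a median of -0.16. The CCT list was chosen with earlier results of these data known, and the difference between these complexes was not tested.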

How the data were processed

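The authors summarized HG-U133 Plus 2.0 arrays with iterPLIER and deposited a linear signal intensity per probe set. Affymetrix Expression Console 1.3.1.187 and PLIER are named in the submitters' processing notes. How arrays were normalized to each other was not stated in the sources used here. Following the methods of the study, 16 was added and log2 taken. Probe sets were named from the platform annotation, with symbols updated through the gene ID (RefSeq), and 41091 of 54675 named a single gene. The brightest of these represented each of 19775 genes. AS605240 and vehicle were compared in R 4.3.3 with limma 3.58.1, with cell line as a block because both arrays of a pair came from the same line. P-values were adjusted over all genes, at a threshold of 0.05. Those of single probe sets came from a separate fit of all probe sets other than controls and were adjusted over these. The fit was tested on simulated data. Full values are given for members past both thresholds, the 2 smallest p of each class, the catalytic subunits and the immunosubunits, and for 3 genes of each other list. Members, classes and lists were chosen with earlier results of these data known. The number of arrays limits the precision, and the spread between lines includes array noise.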

Additional observations from a re-analysis of the deposited data

Results flagged for a closer look

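For each protein-coding member, the vehicle levels and the changes of the 7 lines were searched for 1 line far from the others. Of 88 such groups of 7 lines, 6 had one, and chance gives about 1 in 20. With vehicle, PSMB8 was highest in ALL-SIL at 10.67, with the next line at 10.17. PSMD3 was highest in Molt-4 at 10.15, with the next at 9.47. PSMD8 was highest in Jurkat at 10.79, with the next at 10.62. PSME3IP1 was highest in HPB-ALL at 10.25, with the next at 9.41. Among the changes, that of PSME1 was lowest in ALL-SIL at -0.16, where the next line was at -0.0043, and that of PSMG2 was highest in HPB-ALL at 0.26, where the next was at 0.10.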

How the results depend on the processing

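Over 16 alternatives, 703 values of single members were recomputed. Of these, 44 lost the call and 14 gained it. The sign differed from that of the reported value in 14, all of members near 0 and without a call (PSMB10, PSMB4, PSMD9, PSME1 and PSME3IP1), and no called member changed sign. Without the replicate block (no cell line term, so that the pairing is ignored), no member was called lower or higher and none passed both thresholds, that is 0, 0 and 0, with 5 lower at an unadjusted p under 0.05. Of all genes, 0.0303% were then called lower and 0.0961% higher. Among the alternatives with the line term, 7 of the 14 called members kept the call in every one: PSME3, PSMG1, PSMC4, PSMD12, PSME4, PSMD1 and PSMC3IP. Members lower numbered 9 with an offset of 4 (4.85% of all genes) and 17 with an offset of 64 (7.67% of all genes). They numbered 9 when the probe sets of a gene were averaged (6.31% of all genes). There PSMA5, PSMD6, PSMD11, PSMF1 (-0.02) and PSMG4 lost the call and PSMB2 gained it. Members past both thresholds numbered 1 with an offset of 64 and 1 with probe sets averaged. Leaving out each line gave 9 to 14 lower, 1 higher, 1 to 2 past both thresholds and 39 to 42 differing between lines. Of all genes, 5.33% to 7.33% were then lower, 9.10% to 11.1% higher and 62.2% to 66.2% different between lines. The shares of all genes given for these alternatives include the dim genes. Without TALL-1, PSME3 was at -0.58 and missed the fold threshold. PSMA7, PSMC1, PSMD11 and PSMF1 each lost the call without P12-ICHIKAWA, without ALL-SIL, without TALL-1, with P12-ICHIKAWA and TALL-1 averaged and with an offset of 4. PSMA7 also lost it without CCRF-CEM, PSMF1 without Jurkat, and PSMC1, PSMD11 and PSMF1 without Molt-4.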
